A study of Arabidopsis thaliana with 21 samples.

Results

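The 3′ UTRs of Arabidopsis transcripts held 9188 reproducible crosslink (XL) sites of AtGRP7-GFP, spread over 520 gene models. A site is 1 base at which the protein was joined to RNA by UV light. It was taken as reproducible when it was listed as significant, on the same strand and under the same gene model, in at least 4 of the 5 AtGRP7-GFP libraries crosslinked at LL36, that is after 36 h in continuous light. Sites were thus chosen by their listing at LL36, so that LL36 values of these sites are given as a description. They also had to be named exonic in the lists and to lie in the 3′ UTR of the named gene model in the TAIR10.1 annotation. The 9188 sites are 47.9% of the 19165 reproducible sites of all transcript regions, and all libraries together listed 145822 different positions.

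The iCLIP libraries came from aerial tissue of 18-day-old plants that had grown for 16 days in cycles of 12 h light and 12 h dark at 20 °C and were then moved to continuous light, and crosslinks were made with 254 nm light at 500 mJ/cm2 before capture with GFP Trap beads. AtGRP7::AtGRP7-GFP plants carry the tagged protein in the grp7-1 T-DNA mutant (5 libraries at LL36, 3 at LL24), AtGRP7::AtGRP7 R49Q-GFP plants carry a version with a changed RNA recognition motif, also in grp7-1 (2 at LL36, 3 at LL24), and AtGRP7::GFP plants carry GFP alone in Col-0 (5 at LL36, 3 at LL24). In each line the AtGRP7 promoter drives the transgene, and by the study's methods the AtGRP7-GFP and GFP constructs contain the AtGRP7 3′ UTR. In these 2 lines reads of the AtGRP7 3′ UTR can therefore come from transgene mRNA, and transgene and endogenous transcripts cannot be told apart there.

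AtGRP7 is a glycine-rich RNA-binding protein with a single RNA recognition motif, and its mRNA oscillates with the circadian clock. The protein binds its own transcript and that of its paralog AtGRP8 and takes part in a negative feedback loop on both. 3′ UTRs are known as places where RNA-binding proteins act on polyadenylation, stability and translation of an mRNA. In iCLIP, reverse transcription stops next to the crosslinked base, so that each read start marks the site to the base.

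Sites lay next to each other in blocks. In the authors' calling, each crosslink was extended by 15 nt on either side before positions were scored. Neighbours of a strong site could thus pass with it, so that sites of 1 block are not separate calls. The part of this step in the blocks was not tested. When positions up to 10 nt apart were joined, the 9188 sites formed 656 groups, and the base with the highest mean crosslink count at LL36 was taken as the peak of its group. The following 21-nt stretches surround the peaks of 14 3′ UTRs discussed in the text. They are shown because the bases next to the peak recur between unrelated genes. The crosslinked base is in capitals, and positions refer to the TAIR10.1 assembly with 1 as the first base of a chromosome.
CAB1 (chr1:10478901-10478921, plus strand): agucuuugcuUcgugagugug
RBCS1A (chr1:25048306-25048326, minus strand): uaucggauucUcaacugucug
PSBX (chr2:2587799-2587819, minus strand): uguauucguuUcaauguugca
PSBR (chr1:29736818-29736838, plus strand): uauaaauguuUcuguguuguu
LHCA3 (chr1:22701252-22701272, plus strand): auucguguuuUguaagaaaug
PSAO (chr1:2640975-2640995, minus strand): auucuuguuuUcguuuguacu
FED A (chr1:22445120-22445140, plus strand): guuccugguuUggcucaccau
RCA (chr2:16570845-16570865, minus strand): gaucuuguccUcuuuuguucc
TPPI (chr5:3160429-3160449, plus strand): ucacauuguaUuuuuguaaaa
GRP7 (chr2:9265326-9265346, minus strand): uauuuugguaUcuggaaacgu
CCL (chr3:9828504-9828524, plus strand): cuacaagucuUuguaaccacu
CAT3 (chr1:7146339-7146359, plus strand): aacucauguuUccuuccuuuc
KIN2 (chr5:5212572-5212592, plus strand): uuuuaauguuUcuucucccuu
RD19 (chr4:18215728-18215748, minus strand): uaucucugcuUcuugcuugua

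Uridine was the crosslinked base at 60.2% of the 9188 sites, against 44.9% in the 10 nt on either side and 38.2% over the whole 3′ UTRs that held them. The share was higher at sites with higher counts. It was 44.3% among the 1071 sites with a mean count below 2 and 85.9% among the 191 sites with a mean count of 50 or more. At the 656 peaks it was 89.8%. By the study, UV crosslinking in CLIP occurs mainly at uridines. The part of this in these and the following uridine shares was not tested. The base that followed the peak was cytidine in 49.4% of them, against 15.8% cytidine over the 3′ UTRs. Guanosine stood 3 nt before the peak in 45.7% and 4 nt before it in 41.8%, against 17.2% over the 3′ UTRs. At least 1 of these 2 positions held a guanosine in 72.6% of the peaks, compared with 31.5% of all neighbouring base pairs in the same 3′ UTRs. The commonest 4 bases from 2 nt before the peak to 1 nt after it were UUUC, at 132 peaks (20.1%). PSBX, PSBR, CAT3 and KIN2 above have this form with a guanosine 3 nt before the peak, and PSAO has it with a guanosine 4 nt before the peak. CAB1, RBCS1A, LHCA3, FED A, RCA, TPPI, GRP7, CCL and RD19 have other bases at 1 or more of these places.

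**Figure D1:**
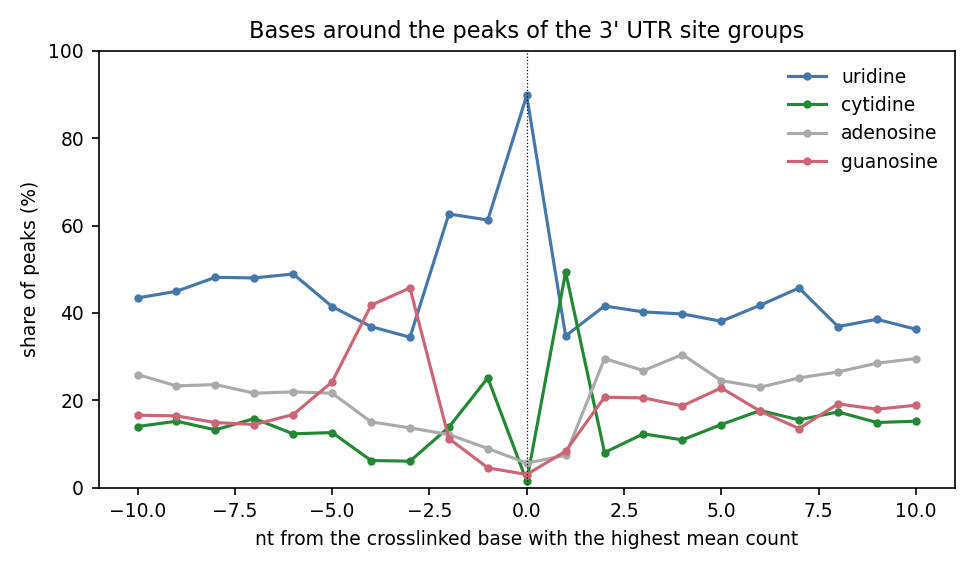
Share of each base (%) at each nt from 10 before to 10 after the 656 peaks, the sites with the highest mean LL36 count of their group. Uridine reaches 89.8% at the peak, cytidine 49.4% at the next base, and guanosine 45.7% and 41.8% at 3 and 4 nt before it.

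The same arrangement was measured in single libraries, with peaks called in each library among groups of at least 5 of its own 3′ UTR sites. In the 5 AtGRP7-GFP libraries at LL36, 82.7% to 88.7% of the peaks were uridine, and cytidine followed in 39.2% to 51.6%. In the 3 libraries at LL24, whose sites took no part in the choice of members, these ranges were 75.1% to 87.5% and 45.1% to 48.96%. A guanosine 3 or 4 nt before the peak was found in 62.5% to 70.9% at LL36 and in 53.1% to 64.2% at LL24. In the other transcript regions the shares differed in part. Peaks of reproducible sites in coding exons, 739 in number, had uridine in 86.1%, a following cytidine in 61.2% and a guanosine at 3 or 4 nt before in 75.2%. At 288 peaks in 5′ UTRs these shares were 89.2%, 63.5% and 50.3%, and at 121 peaks in introns 74.4%, 27.3% and 44.6%. The differences between regions were not tested. The 1 R49Q-GFP library with over 20 such groups was replicate 2 at LL24. Of its 73 3′ UTR peaks, 68.5% were uridine, 42.5% had a following cytidine and 57.5% a guanosine 3 or 4 nt before. At its 57 coding exon peaks these shares were 80.7%, 57.9% and 68.4%. The arrangement was thus also present in this control library.

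For the excess of uridine at the site over its surroundings, all 3′ UTR sites of a library were used. The difference was 11.7 percentage points ± 1.33 (SD, n = 5) at LL36, and it was positive in 5 of 5 libraries (two-sided exact sign-flip permutation test over libraries, p = 0.0625, the smallest that 5 libraries allow). At LL24 it was 11.8 ± 0.92 (SD, n = 3), positive in 3 of 3 libraries (exact sign-flip test, p = 0.25, the smallest that 3 allow).

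Short motifs were counted in the 21-nt windows around the sites, on the transcript strand only and also where motifs overlap each other. UGUA occurred in 28.0% of the 9188 windows and in 231 gene models, against 12.6% of all windows of this length in the same 3′ UTRs and 14.0% of windows sampled every 7 nt over 3′ UTRs of all genes. Neighbouring sites share sequence. With 1 window for each of the 656 peaks, UGUA was in 19.7%, against 14.7% of windows centred 25 to 174 nt from the stop codon of these 3′ UTRs. UGUUU was in 23.5% of the peak windows (13.5% at 25 to 174 nt) and UUUGU in 20.3% (13.4%). The hexamer UUCUGG was rare, in 84 site windows of 13 gene models (0.914%) and in 0.536% of all windows of the same 3′ UTRs. AAUAAA, the best known polyadenylation signal, was in 1.00% of site windows and in 2.07% of all windows of these 3′ UTRs.

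UUCUGG occurs once in the 3′ UTR of AtGRP7 itself, 88 to 93 nt after the stop codon, and 19 of the 69 sites of this 3′ UTR lay within 10 nt of it. The 69 sites formed 1 group 74 nt wide, so that most bases of this stretch were sites. The number 19 thus does not show that sites gather at UUCUGG. The 30 bases around this hexamer, which is in capitals, read as follows.
GRP7 (chr2:9265372-9265401, minus strand): uucucuauuuugUUCUGGuucugcuuuaga
The peak of AtGRP7 lay farther downstream, at 141 nt from the stop codon.

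Sites lay in the part of the 3′ UTR close to the stop codon. Their median distance from the stop codon was 91.0 nt (quartiles 56 and 130.0), and their median distance to the last base of the model was 197 nt. On a relative scale, with 0 for the first base after the stop codon and 1 for the last base, the median was 0.303. When each 3′ UTR was cut into 3 equal parts, the part next to the stop codon held 55.7% of the sites, the middle one 40.1% and the last one 4.27%. Per 1000 bases of 3′ UTR at a given distance, 128 sites lay between 76 and 100 nt from the stop codon, 43.4 within the first 25 nt and 2.92 between 251 and 275 nt. Counted from the other end, there were 2.85 sites per 1000 bases in the last 25 nt.

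**Figure D2:**
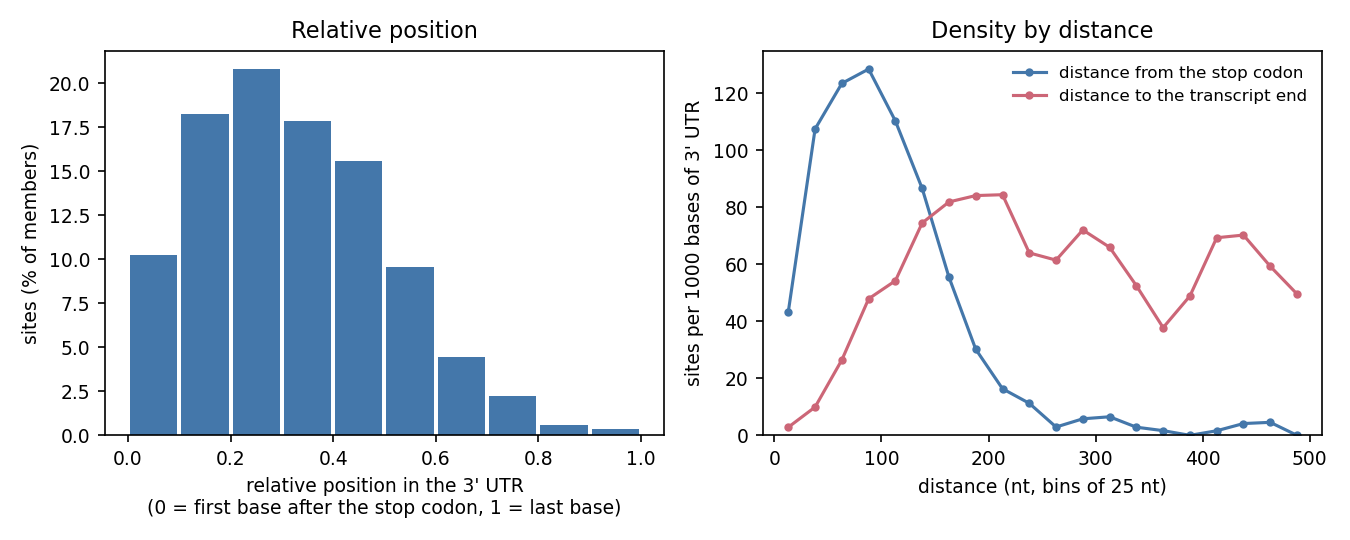
Left, the 9188 sites by relative position in the 3′ UTR (% of sites per bin); right, sites per 1000 bases of 3′ UTR by distance from the stop codon and to the transcript end (nt, bins of 25 nt). The density peaks at 128 sites per 1000 bases at 76 to 100 nt from the stop codon and is 2.85 in the 25 nt before the transcript end.

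Over all 3′ UTR sites of a library, the median relative position was 0.299 in the mean of the 5 libraries at LL36, with a range of 0.273 to 0.357, and lay below 0.5 in 5 of 5 (two-sided exact sign-flip test, p = 0.0625, the smallest possible). At LL24 it was 0.292, with a range of 0.287 to 0.296, below 0.5 in 3 of 3 libraries (exact sign-flip test, p = 0.25, the smallest possible). Reads shorter than 15 nt had been discarded by the authors, so that the last bases of a transcript yield few sites, and the ends of RefSeq models can lie beyond the ends of the RNA in these plants. The part of either in the distances to the transcript end was not tested.

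The 3′ UTRs with a site were between 75 and 1427 nt long, with a median of 296 nt, against 249 nt for all 23788 genes with an annotated 3′ UTR. In 409 of the 520 gene models all sites formed 1 group. Of the 9188 sites, 9083 had another within 10 nt. The widest group, in PSBW (a photosystem II subunit), held 110 sites over 136 nt, starting at the first base after the stop codon. The gene model with the most groups was AT1G49500, with 25 sites in 4 groups.

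TPPI, which encodes a trehalose phosphate phosphatase, departed from the common position. Its 11 sites were adjacent bases 158 to 168 nt from the stop codon and ended 2 nt before the last base of the named model. The site 164 nt from the stop codon had counts of 345, 445, 271, 67 and 287 in the 5 LL36 libraries and 50, 88 and 35 in the 3 LL24 libraries. It was among the 5 gene models with the highest mean count, and 10 of the 11 sites were also listed in a control library. The annotated gene continues beyond this model.

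The number of sites per gene model varied from 1 (55 models) to 115, with a median of 10.0. The 12 models with the most sites held 11.8% of them, and 11 of these 12 encode proteins of photosynthesis. The remaining one is THI1, a thiazole synthase of thiamine formation, with 95 sites. Counts were low at most sites. The mean over the libraries that list a site had a median of 4.50, and 2009 sites (21.9%) had a mean of 10 or more. Counts are not scaled for depth, and each library lists only positions that passed the authors' FDR, so that a site absent from a list can still have had crosslinks.

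Rubisco small subunits led the list. All 5 genes of the list (4 RBCS genes and the activase RCA) had sites, 407 in all. RBCS3B had 115, all in 1 block from 8 to 122 nt after the stop codon. In RBCS1A, 94 sites filled each base from 71 to 164 nt. Its peak, 149 nt from the stop codon, had 500, 564, 253, 381 and 500 crosslinks in the LL36 libraries and 137, 323 and 134 in the LL24 libraries. RBCS2B had 93 and RBCS1B 62 sites. The RBCS1B, RBCS2B and RBCS3B genes lie in tandem on chromosome 5 and are close copies, and only uniquely mapped reads were counted, so that stretches they share are not represented.

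Of 20 genes of the light-harvesting antenna, 16 had sites, 859 in all. CAB1, which encodes a protein of the main antenna LHCII, had the site with the highest mean count of all, 526.8, at 37 nt from the stop codon. The counts there were 947, 680, 474, 252 and 281 at LL36 and 86, 111 and 68 at LL24. LHCA3 and LHCA4, antenna proteins of photosystem I, had 94 and 74 sites, LHCB4.1 had 83, LHB1B2 57 and LHCB3 53. LHCB1.1, LHCB1.2 and CAB1 (LHCB1.3) are close copies as well, with the same limit as the RBCS genes. No site was found in LHCB2.3, LHCB4.3, LHCA5 and LHCA6. All 57 sites of LHB1B2 and all 53 of LHCB3 lay within a second annotated gene on the opposite strand. This holds for 601 of the 9188 sites counting either strand (23 on the same strand). The lists give a strand for each site.

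All 13 photosystem I genes of the list and 11 of 12 photosystem II genes had sites, 557 and 597 in number, with PSB27 as the exception. PSBQ-2 and PSBP-1, both of the oxygen-evolving complex, had 85 and 76 sites, PSBR had 78 and PSBX 52. PSAO and PSAF of photosystem I had 63 and 61. DRT112, a plastocyanin, had 88 sites in 2 groups, and FED A, a ferredoxin, had 67. The peak of DRT112, 35 nt from the stop codon, was listed in 4 LL36 libraries with counts of 277, 384, 166 and 97, was not listed in replicate 5, and was listed in 1 library at LL24. Across all 27443 coding genes, 1.89% had a reproducible 3′ UTR site. These gene lists hold abundant leaf mRNAs, and sites are found more easily in abundant transcripts. RNA levels were not measured in these files, and their part in the counts was not tested.

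Among 7 glycine-rich RNA-binding protein genes, AtGRP7 had 69 sites and AtGRP8 (CCR1 in RefSeq) had 12, while GRP2 to GRP6 had none. The AtGRP7 sites lay 83 to 156 nt and the AtGRP8 sites 89 to 103 nt after the stop codon. The peak of AtGRP7 had counts of 120, 153, 55, 95 and 96 at LL36 and was not listed at LL24. The peak of AtGRP8, 102 nt from the stop codon, had 10, 8, 4, 2 and 6, also with no LL24 library.

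Of 14 cold-regulated genes, 5 had sites. KIN2 had 42 and its neighbour and close copy KIN1 had 5, COR413-PM1 had 34, COR15B 18 and COR78 7. Of 12 genes of the clock list, CCL, a clock-controlled transcript, had 61 sites and ELF4, a component of the evening complex, had 3. No reproducible 3′ UTR site was listed for CCA1, LHY, TOC1, PRR5, PRR7, PRR9, GI, ELF3, LUX or RVE8. DRM2 (AT2G33830), a dormancy-associated gene, had 42 sites late in its 3′ UTR, 165 to 223 nt from the stop codon. AILP1, also of the dormancy and sugar starvation list, had 11, all of them inside a second gene on the opposite strand. The catalase gene CAT3 had 57 sites and CAT2 had 6, and the carbonic anhydrase gene CA2 had 67. CAT1, CA1 and CA4 had none. Of the remaining genes named by the study, NIA2, a nitrate reductase, had 42, FNR2, a ferredoxin-NADP reductase, had 22 and PR4, a pathogenesis-related protein, had 9.

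**Figure D3:**
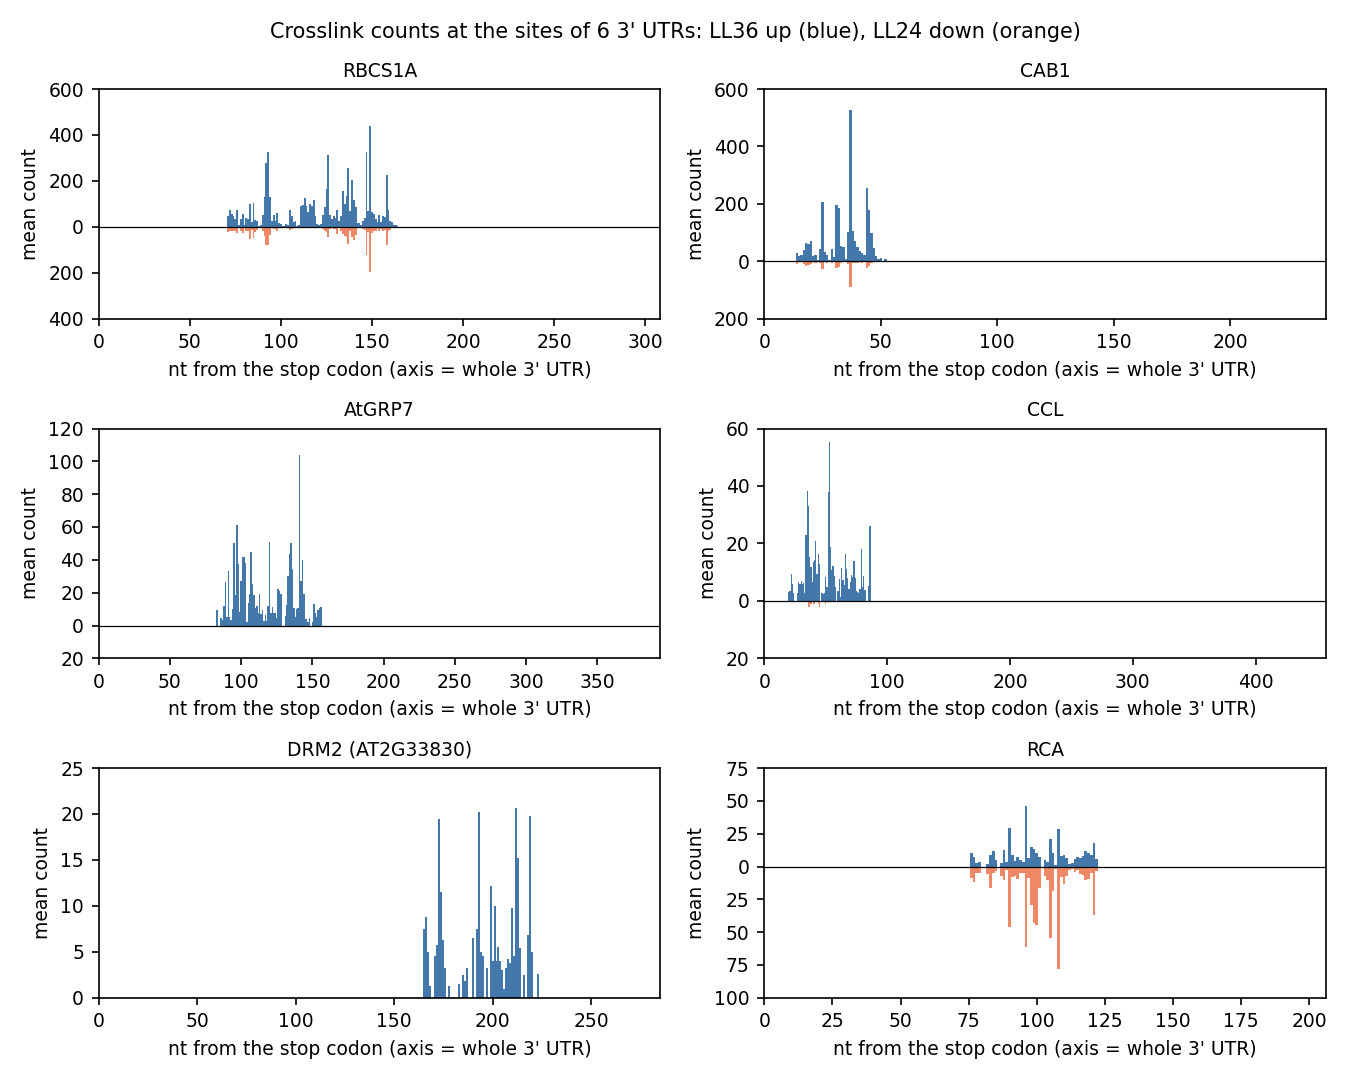
Mean crosslink count (over the libraries that list the site) at each site of 6 3′ UTRs, by distance from the stop codon in nt; blue bars upward are LL36, orange bars downward LL24, and each x axis spans the whole 3′ UTR. The sites of CAB1 and CCL begin 14 and 20 nt after the stop codon and those of DRM2 165 nt after it, and DRM2 has no LL24 bar while the tallest LL24 bars of RCA exceed its tallest LL36 bar (46.2).

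By the study, LL36 was subjective dusk, the time of AtGRP7 peak expression, and LL24 was subjective morning. The AtGRP7 promoter drives the tagged protein, so that protein amount, transcript levels and binding cannot be told apart between the time points. At LL24, 12 h earlier in the same continuous light, 6263 of the 9188 sites (68.2%) were listed in at least 1 of the 3 AtGRP7-GFP libraries, compared with 18.2% of all 139494 sites listed at LL36. At least 2 LL24 libraries listed 3860 sites (42.0%, against 7.36% of all sites). Of all 55965 3′ UTR sites listed at LL36, 20.7% were in at least 1 and 8.89% in at least 2 of the LL24 libraries, and of those that were not reproducible 11.4% and 2.39%. Single libraries listed 3899, 5629 and 2587 of the sites, and the counts there summed to 17649, 37032 and 10306, compared with 42320 to 124447 at LL36. In the other direction, 74.7% of the 5165 3′ UTR sites listed in at least 2 of the 3 LL24 libraries were reproducible at LL36, and 189 were in no LL36 library, with the most in TT4 (chalcone synthase, 29 sites).

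Recurrence was higher for sites with higher counts at LL36. It was 44.0% for sites with a mean count below 2 and 90.6% for those of 50 or more (97.3% for coding exon sites of 50 or more). Just inside the requirement of 4 libraries, 53.2% of the 4411 sites in exactly 4 libraries were listed at LL24, with a median mean count of 3.00. Just outside it, 30.7% of the 6401 sites in exactly 3 libraries were listed, with a median mean count of 2.33. Of the 2925 sites that were not listed, 1091 had an LL24 site within 3 nt. Over the 6263 listed sites, the log2 mean counts at LL36 and LL24 had a Pearson correlation of 0.733 and a Spearman correlation of 0.665. This is a correlation across sites of the same plants' transcripts, which are not independent replicates.

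Each LL24 library listed a larger share of the 3′ UTR sites than of the reproducible sites in coding exons or 5′ UTRs. The shares of 3′ UTR sites were 42.4%, 61.3% and 28.2% in the 3 libraries, those of coding exon sites 38.5%, 54.2% and 25.2%, and those of 5′ UTR sites 36.02%, 51.5% and 27.0%. The mean difference was 4.65 percentage points ± 2.14 (SD, n = 3) from coding exons and 5.79 ± 4.37 (SD, n = 3) from 5′ UTRs, positive in 3 of 3 libraries (two-sided exact sign-flip tests, p = 0.25 each, the smallest that 3 libraries allow, 0.375 after Benjamini-Hochberg adjustment over 3 regions). From introns it was 3.07 ± 7.24 (SD, n = 3), positive in 2 of 3 (exact sign-flip test, p = 0.75, adjusted 0.75). With positions within 10 nt merged, the differences were 3.53 points from coding exons, 0.85 from 5′ UTRs and -3.65 from introns, and with gene models weighted equally 3.84, 0.997 and -8.33. Median mean counts at LL36 also differed, with 4.50 in 3′ UTRs, 4.00 in coding exons, 3.4 in 5′ UTRs and 4.2 in introns. Among sites with a mean count of 5 or more the difference was 3.13 points from coding exons, positive in 3 of 3 libraries, and 2.83 points from 5′ UTRs, positive in 2 of 3. Within transcripts that had reproducible sites in both regions, the 6777 3′ UTR sites exceeded the 5923 coding exon sites by 9.93 points (p = 0.25, exact sign-flip test).

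**Figure D4:**
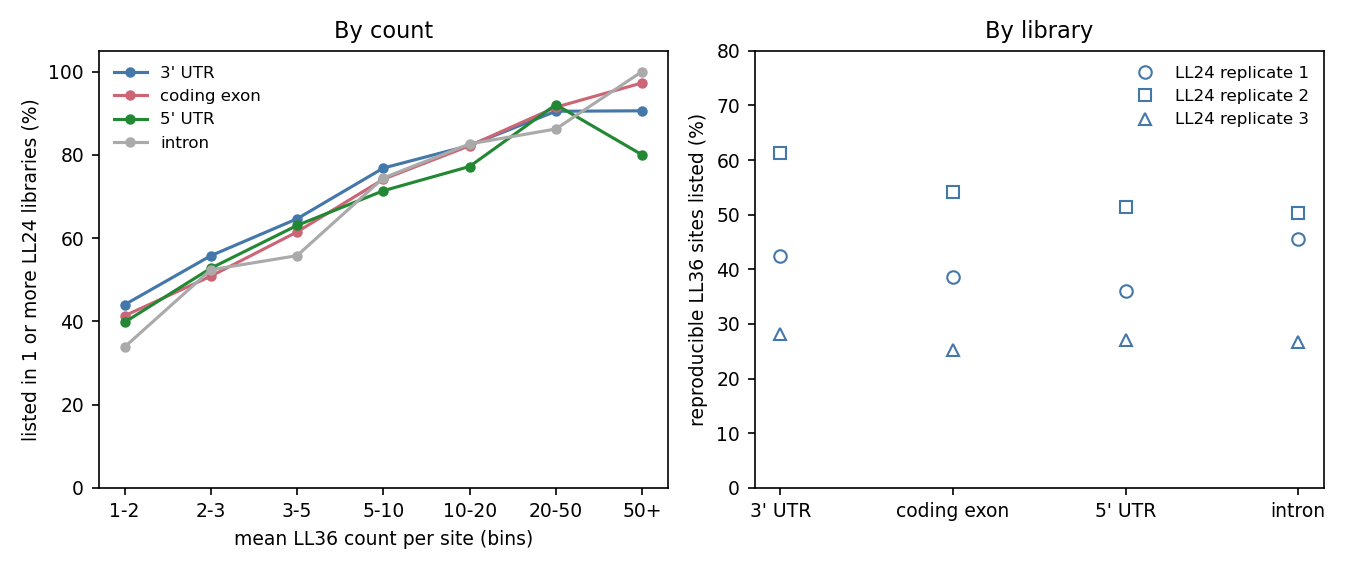
Left, the share (%) of reproducible LL36 sites listed in at least 1 LL24 library by bins of mean LL36 count, for each transcript region; right, the share (%) listed in each of the 3 LL24 libraries. The 3′ UTR sites go from 44.0% in the lowest to 90.6% in the highest bin and exceed coding exon and 5′ UTR sites in each of the 3 libraries.

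Gene models differed widely in recurrence. Of the 520, 358 had at least 1 site listed at LL24. Among the 266 models with 10 or more sites, the median share listed was 76.7%, 27 had every site listed and 35 had none. The models with every site listed included RBCS3B (115 of 115), PSBR (78 of 78), FED A (67 of 67), CA2 (67 of 67) and PSAO (63 of 63). Those with none included CAT3 (0 of 57), DRM2 (0 of 42), KIN2 (0 of 42), AT1G13930 (0 of 41) and RD19, a cysteine protease (0 of 26). AtGRP7 had 3 of 69, AtGRP8 0 of 12 and CCL 8 of 61. NIA2 had 40 of 42, PR4 8 of 9, KIN1 5 of 5, FNR2 11 of 22 and AILP1 4 of 11. By list, 95.3% of the sites of the rubisco list, 93.2% of photosystem I, 89.1% of photosystem II and 85.7% of antenna sites were listed at LL24, and 51.2% of the 895 sites in genes named as cytosolic ribosomal proteins. The shares were 18.9% for cold-regulated, 12.5% for clock and 7.14% for dormancy and sugar starvation genes, and 3.70% for glycine-rich RNA-binding proteins. CCL held 61 of the 64 clock sites, DRM2 42 of 56 dormancy and sugar starvation sites, and AtGRP7 69 of 81 glycine-rich sites. Among other lists, 88.9% of metallothionein, 71.9% of translation, 66.0% of aquaporin and 56.2% of carbonic anhydrase and catalase sites were listed at LL24.

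The differences between genes were also present in the counts, which were set relative to the sum over all 9188 sites of the same library. RCA sites took 0.419% to 0.569% of this sum in the 5 LL36 libraries and 2.17% to 5.66% in the 3 LL24 libraries. Its peak had counts of 72, 87, 28, 17 and 27 at LL36 and of 51, 71 and 63 at LL24, although the latter libraries had lower sums. RBCS3B took 2.95% to 3.53% at LL36 and 6.63% to 7.64% at LL24. LHCB2.1, of the main antenna, took 0.114% to 0.203% at LL36 and 0.867% to 1.07% at LL24. RBCS1A did not separate the time points, with 6.79% to 8.92% at LL36 and 7.41% to 8.83% at LL24. CAB1 took 1.99% to 4.46% at LL36 and 1.32% to 1.95% at LL24. AtGRP7 took 1.096% to 1.55% at LL36. At LL24 no site of it was listed in 2 libraries, and replicate 2 had 0.00810%. For CCL the shares were 0.702% to 0.948% at LL36 and at most 0.0297% at LL24. CAT3, with 0.422% to 0.532% at LL36, had no listed site at LL24. R49Q-GFP control libraries at LL24 listed 29 of the 43 RCA sites, 64 of the 115 of RBCS3B and 14 of the 28 of LHCB2.1. They also listed 68 of the 94 sites of RBCS1A and 16 of the 38 of CAB1, and no site of AtGRP7, CCL or CAT3.

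Of the 266 models, 85 (32.0%) took a larger share in every LL36 library than in any LL24 library, 42 (15.8%) a larger share in every LL24 library, and 139 overlapped. Over all 1450 gene models with 10 or more listed 3′ UTR positions, with shares of all 3′ UTR counts, these percentages were 9.59% and 3.86%. The sites were chosen for being listed at LL36 and the LL24 libraries list fewer sites, so that these numbers are a description and were not tested. Within LL36, 10 of the 266 models had no site listed in replicate 4, among them AT1G13930 with 41 sites, 2 had none in replicate 3 and 1 had none in replicate 5.

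Single control libraries listed between 2 and 966 of the 9188 sites. At LL36, GFP-only libraries listed 2, 72, 11, 22 and 5 of the 9188 sites and R49Q-GFP libraries listed 2 and 238. At LL24, GFP-only libraries listed 66, 83 and 5 and R49Q-GFP libraries listed 117, 966 and 31. AtGRP7-GFP libraries listed 7117 to 9079 at LL36, which the choice of sites fixed, and 2587 to 5629 at LL24. The AtGRP7-GFP libraries at LL24 did not overlap with either control. The means of log2(number + 1) differed by 6.89 from GFP-only and by 4.64 from R49Q-GFP libraries (two-sided exact permutation tests of 3 libraries against 3, p = 0.1 each, the smallest possible). The sites were chosen in AtGRP7-GFP plants, whose libraries also list more entries. The direction of these differences was thus largely set in advance, and no conclusion on binding is drawn from them. At LL36 the difference between R49Q-GFP and GFP-only libraries was 1.05 (exact permutation test of 2 libraries against 5, p = 0.762, where 0.0476 is the smallest possible), and it was -2.11 without R49Q-GFP replicate 2 and 4.21 without replicate 1.

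**Figure D5:**
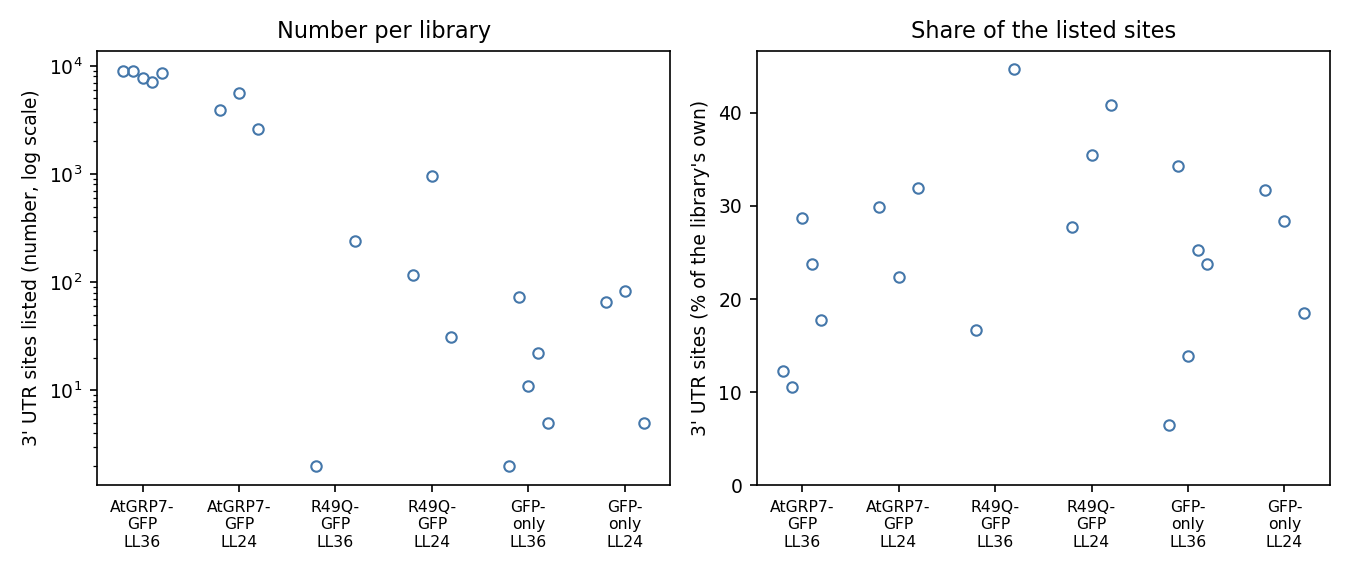
Each circle is 1 of the 21 libraries: left, the number of the 9188 sites it lists (log scale); right, these sites as a share (%) of its own listed sites. The AtGRP7-GFP libraries lie above both controls at LL24 by number (2587 to 5629 against at most 966), while the shares overlap.

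Relative to the sites each library listed itself, the groups did not separate. At LL24 the shares were 28.1% in AtGRP7-GFP libraries, 26.2% in GFP-only and 34.7% in R49Q-GFP libraries on average (exact permutation tests against AtGRP7-GFP, p = 0.6 and p = 0.3). Control libraries held between 12 and 2721 entries, an entry being a position with its gene model, compared with 8109 to 85904 in AtGRP7-GFP libraries.

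In total, 1159 of the 9188 sites (12.6%) in 102 gene models were listed in at least 1 of the 13 control libraries, against 1.99% of all sites listed at LL36 in AtGRP7-GFP plants. For reproducible sites of the other regions this share was 10.8% in coding exons, 8.10% in 5′ UTRs and 16.2% in introns. It was thus not particular to 3′ UTR sites. R49Q-GFP libraries at LL24 accounted for 1011 of the 1159 3′ UTR sites, 11.003% of the 9188 (1.7% of all LL36 sites), with 966 of the 1011 in replicate 2. GFP-only libraries at LL24 accounted for 136 (1.48%, against 0.22%). Both controls at LL24 together listed 1.78% of all LL36 sites and both at LL36 0.454%. R49Q-GFP libraries at LL36 listed 240 sites (2.61%, against 0.348%) and GFP-only libraries at LL36 110 (1.197%, against 0.151%). The largest numbers were in RBCS1A (74 of 94), RBCS3B (70 of 115), PSBR (56 of 78), LHCA3 and PSAO (38 each), FED A (35) and PSAF (33). Between 23 and 32 were in each of THI1, RBCS2B, PSBX, RCA, DRT112, LHCB3, RBCS1B and LHB1B2. CCL, DRM2, KIN2, RD19, AtGRP8, FNR2, AILP1, PR4 and KIN1 had none in any of the 13. AtGRP7 had 15 of 69, all of them in GFP-only plants at LL36, whose GFP transcript carries the AtGRP7 3′ UTR. CAT3 had 6 of 57, all in R49Q-GFP plants at LL36. Counting any listed position of a gene model, 190 gene models that hold 5445 of the 9188 sites had one in a control library. The study left transcripts with significant sites in its controls out of its targets, whereas they are kept here. By its methods, control sites too had to recur at the same position between replicates. The 190 gene models count any position in any 1 control library, so this is not the number of transcripts that the study left out.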

How the data were processed

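The lists of significant XL sites of 21 iCLIP libraries were used. According to the authors' methods and processing notes, reads were trimmed with cutadapt 1.9.1 (quality 20, minimum length 15), PCR duplicates were removed by their random barcodes, and unique alignments to TAIR10 with at most 3 mismatches were made with STAR 2.5.2a. The position 1 nt upstream of a read start was the XL site, and positions with an FDR below 0.05 against 100 random placements within the same transcript region were kept. The deposited counts are unscaled crosslink counts at these positions only. With its requirement of the same position in at least 4 of 5 replicates, the study reported fewer AtGRP7-GFP sites at LL36 than the 19165 found here. By its methods, the study also repeated the FDR step many times and went on with sites that passed in nearly all re-runs. Whether the lists used here had passed this filter was not examined, and the reason for the difference was not tested.

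Sites were placed in the named gene model of the RefSeq TAIR10.1 annotation, whose nuclear coordinates are those of TAIR10 but whose models can be newer. Of all 315156 entries, 940 had a model not found there and 1821 lay outside it. Counts were given as means over the libraries that list a site. Because unlisted positions are not zeros, no count model was fitted, and libraries were compared by exact permutation or sign-flip tests at a level of 0.05 in Python 3.11.15 with numpy 2.4.6 and scipy 1.17.1. Functions were tested on simulated data. Libraries of a group are biological replicates by the study's methods.

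Named genes were the 12 models with most sites, the 5 with the highest mean count, those with 10 or more sites and the 5 lowest or 5 highest shares at LL24, up to 15 with most sites listed in controls, and 9 genes of the study. COR15B, COR413-PM1, COR78, ELF4, CAT2, CA genes, LHCB2.1, TT4 and AT1G49500 were named in addition, from the lists or after their values were seen. The site rule, the gene lists and the tests were chosen with earlier results of these data known, and the motifs and peak contexts after the data were seen.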

Additional observations from a re-analysis of the deposited data

Results flagged for a closer look

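GFP-only replicate 2 at LL36 listed 72 of the 9188 sites, and the other 4 libraries of this group listed 2, 5, 11 and 22. It stood apart from the other libraries of its group by Dixon's test at the 95% level. Of 40 sets of 5 library values examined in this way, 1 passed the critical value, while chance gives about 1 in 20. This is not more than chance gives. Only AtGRP7-GFP and GFP-only at LL36 have 5 libraries, so that the sets repeat the same libraries. GFP-only replicate 2 at LL36 also held more entries, 210, than the other 4 of the group (21 to 87). The cause was not tested.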

How the results depend on the processing

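The number of sites depended on how reproducibility was set. It was 15589 with at least 3 of the 5 libraries, 4777 with all 5, 15227 with a tolerance of 1 nt, 5878 with a count of at least 2, 656 with positions within 10 nt merged, and 3743 without the gene models that had a site in a control library. When 1 library was left out and 3 of the remaining 4 were asked for, which is a looser share, it was between 9794 and 13702. With 2 of the 3 LL24 libraries required, recurrence was 42.0%.

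The difference in LL24 recurrence between 3′ UTR and intron sites changed sign, to -3.65 points with positions merged and -8.33 with gene models weighted equally, an alternative added after the data were seen. The difference from 5′ UTR sites, 5.79 points, was 0.85 with positions merged and 0.997 with gene models weighted equally (exact p = 1 each), 2.83 with a mean count of 5 or more, 9.03 with sites in all 5 LL36 libraries and 3.78 without LL24 replicate 2. That from coding exon sites, 4.65 points, was 9.93 within transcripts with sites in both regions. The intron difference was 1.46 with a mean count of 5 or more and ranged from -0.889 (without replicate 2) to 6.21 over the LL24 libraries left out. Against R49Q-GFP at LL24, the difference was -6.61 percentage points as a share of own entries. At LL36, R49Q-GFP against GFP-only ranged from -2.11 to 4.21 with 1 library left out. The excess of uridine was 36.8 points at LL36 and 31.2 at LL24 with the highest position of each group alone, and 17.9 at LL36 with a count of at least 2. In all, 85 alternatives kept their direction and side of the threshold or, where there was no test, stayed within the spread of libraries or within 1.5 times the number of sites. For tested differences this does not mean that the size was kept, as the values above show. Most tests cannot pass 0.05 with these numbers of libraries, and their p-values say nothing about stability.

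With the replicate number as a block (sign-flip of same-numbered libraries), the differences were 6.89 and 4.64 at LL24 (exact p = 0.25 each) and 0.86 at LL36 (exact p = 1). At LL24 the correlations of same-numbered libraries lay between -0.07 and 0.01 and no library matched its own number best. At LL36, 2 pairs had 0.44 and 0.40. The numbers were not taken as pairs.

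The lists hold significant sites, and read depth was not analysed here. Listed entries numbered at least 8109 in AtGRP7-GFP libraries and at most 2721 in control libraries, and the part of depth in this was not tested.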
